A study of Homo sapiens with 6 samples.

Results

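Of the 20037 protein-coding genes in the gene table, 9 that code for glutamate receptors were examined: GRIA1, GRIA4, GRIK1, GRIK2, GRIN2A, GRIN2B, GRID1, GRM5 and GRM7. They were chosen by name, and a region of a list belonged to a gene when it overlapped the gene body by at least 1 bp. The regions came from MAR-seq, which sequences DNA still bound to the nuclear matrix, a framework of protein and RNA that resists extraction of the nucleus with detergent. All samples were H1 cells, an established line of human pluripotent stem cells. The 6 samples formed 3 groups with 2 samples each. The first group, called hPSC, had no treatment. The shLUC group carried a short hairpin RNA against LUC, which is used here as the hairpin control, and the shHNRNPU group carried a hairpin against HNRNPU, which codes for an RNA-binding protein of the nuclear scaffold. In all groups nuclei were fixed with formaldehyde and cut with the restriction enzymes MspI, HaeIII, RsaI, AluI, BamHI and PvuII.

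There was 1 region list per group, with 40106 regions in hPSC, 39368 in shLUC and 36277 in shHNRNPU, each 400 bp wide. No spread between the samples of a group could be computed, so no difference below has a replicate check and no p-value was computed. The intervals are exact 95% intervals that cover counting error only. The lists hold no expression values, so neither the knockdown nor the cell type could be checked against marker genes, and the read depth is unknown. Of the listed regions, 47 of hPSC, 36 of shLUC and 29 of shHNRNPU lay in the 9 receptor genes.

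Glutamate is the main excitatory transmitter of the brain. AMPA and kainate receptors are channels that carry fast current. NMDA receptors are channels that let calcium in when glutamate arrives while the membrane is depolarized, delta receptors bind the synaptic organizers called cerebellins, and metabotropic receptors act through G proteins. Many of these genes are very long, and they are known for their work in neurons rather than in stem cells. Regions attached to the matrix are thought to anchor loops of chromatin. Their number and spacing along these long genes are described here, and no loop was measured. A start or stretch called held in a list had a region of that list on it.

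Several gene starts lay under a region of more than 1 list, and 5 promoter sequences are shown to give the bases held there. RefSeq promoter windows, which run from 250 bases before a listed transcription start to 50 after it on GRCh38.p14, were given for 7 of the 9 genes, and GRIK1 and GRID1 had no entry. The sequences below are the 250 bases before a listed start that is the first base of the gene body. The 5 genes shown are those with a region of at least 1 list on the window of such a start. GRIA1 is not shown, because its listed starts lay inside the gene body, although hPSC and shLUC had a region on one of its windows. The sequences are given 5′ to 3′ along the gene, and capitals mark the bases covered by every list that had a region there. The GRIA4 stretch is chr11:105609744-105609993 on the plus strand and was held in all 3 lists. The GRIK2 stretch is chr6:101393458-101393707 on the plus strand and was held in shLUC and shHNRNPU. The GRIN2B stretch is chr12:13982135-13982384 on the minus strand and was held in hPSC. The GRM5 stretch is chr11:89065983-89066232 on the minus strand and was held in hPSC and shHNRNPU. The GRM7 stretch is chr3:6860865-6861114 on the plus strand and was held in all 3 lists.
GRIA4: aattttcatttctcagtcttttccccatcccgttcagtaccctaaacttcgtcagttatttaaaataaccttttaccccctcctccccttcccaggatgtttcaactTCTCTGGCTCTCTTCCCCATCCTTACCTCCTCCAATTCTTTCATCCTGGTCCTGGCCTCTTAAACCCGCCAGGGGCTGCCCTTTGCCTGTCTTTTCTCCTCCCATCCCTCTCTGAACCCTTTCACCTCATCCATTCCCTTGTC
GRIK2: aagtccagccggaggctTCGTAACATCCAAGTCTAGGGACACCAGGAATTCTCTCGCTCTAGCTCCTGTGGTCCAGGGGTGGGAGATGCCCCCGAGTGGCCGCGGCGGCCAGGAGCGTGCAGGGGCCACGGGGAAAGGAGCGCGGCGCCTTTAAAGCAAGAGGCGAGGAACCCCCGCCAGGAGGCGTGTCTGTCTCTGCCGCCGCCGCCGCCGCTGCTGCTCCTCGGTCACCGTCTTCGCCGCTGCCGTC
GRIN2B: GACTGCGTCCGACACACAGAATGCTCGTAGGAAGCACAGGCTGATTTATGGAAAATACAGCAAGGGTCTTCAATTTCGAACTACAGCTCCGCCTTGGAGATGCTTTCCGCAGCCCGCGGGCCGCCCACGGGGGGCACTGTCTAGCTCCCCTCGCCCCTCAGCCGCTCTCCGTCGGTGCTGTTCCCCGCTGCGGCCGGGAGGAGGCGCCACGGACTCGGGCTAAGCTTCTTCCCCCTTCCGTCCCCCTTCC
GRM5: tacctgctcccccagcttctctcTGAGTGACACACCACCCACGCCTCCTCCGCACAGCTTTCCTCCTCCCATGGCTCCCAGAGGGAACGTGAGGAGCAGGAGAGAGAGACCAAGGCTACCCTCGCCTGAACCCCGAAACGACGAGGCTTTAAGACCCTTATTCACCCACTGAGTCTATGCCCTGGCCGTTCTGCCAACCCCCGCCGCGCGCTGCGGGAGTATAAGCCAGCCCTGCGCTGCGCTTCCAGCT
GRM7: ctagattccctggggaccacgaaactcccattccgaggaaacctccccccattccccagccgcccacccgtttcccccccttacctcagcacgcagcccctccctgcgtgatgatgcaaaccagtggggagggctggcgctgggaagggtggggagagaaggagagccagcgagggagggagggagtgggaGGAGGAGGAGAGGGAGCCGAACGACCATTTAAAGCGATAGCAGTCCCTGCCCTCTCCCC

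The capitals cover 143 bases in GRIA4, 233 in GRIK2, 250 in GRIN2B, 227 in GRM5 and 59 in GRM7. In GRM7 the hPSC region covered all 250 printed bases and the hairpin regions covered the 59 nearest to the start. The GC content of the printed bases was 48.8% in GRIA4, 68.0% in GRIK2, 63.6% in GRIN2B, 62.4% in GRM5 and 64.4% in GRM7, against a median of 62.0% over the same stretch of 22199 windows of 15843 protein-coding genes. GRIA4 thus had the lowest GC content of the 5, and it held 3 CpG pairs, against 25 in GRIK2, 21 in GRIN2B, 15 in GRM5, 11 in GRM7 and a median of 16 over all windows. The 5 stretches were chosen because a list had a region there. Over the 8710 windows with a region of any list the medians were 67.2% GC and 23 CpG pairs. Of the 5 only GRIK2 lay above these medians.

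The enzymes of the assay cut at short palindromes, which read alike on both strands. The letters searched were CCGG (MspI), GGCC (HaeIII), GTAC (RsaI), AGCT (AluI), GGATCC (BamHI) and CAGCTG (PvuII), the last of which contains the AluI site. GRIK2 held 1 MspI, 3 HaeIII and 1 AluI site, and GRIN2B held 1 MspI, 2 HaeIII and 3 AluI sites. GRM5 held 1 HaeIII and 3 AluI sites, and GRIA4 held 1 HaeIII and 1 RsaI site. None of the 6 motifs was found in the printed GRM7 bases, whereas 97.5% of all such stretches held at least 1 of them. Among those with a region of any list the share was 99.5%. By motif, 69.0% of all stretches held an MspI site, 80.4% HaeIII, 23.9% RsaI, 65.1% AluI, 5.90% BamHI and 13.7% PvuII. These matches describe the letters of the reference and not where the enzymes cut in the cells.

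Counting windows at any listed start, 5 of the 7 genes had a region on a promoter window in each list, but not the same 5. In hPSC these were GRIA1, GRIA4, GRIN2B, GRM5 and GRM7, where 36.4% of the protein-coding genes with a window had one. In shLUC they were GRIA1, GRIA4, GRIK2, GRIN2B and GRM7, where 19.4% of genes had one, and in shHNRNPU they were GRIA4, GRIK2, GRIN2B, GRM5 and GRM7, where 20.6% did. Among the genes of at least 300 kb with a window, which come closer to these receptors in length, the shares were 42.9%, 35.5% and 37.9% of 625. A gene with several listed starts has more windows that can be met, and this was not adjusted for.

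**Figure D1:**
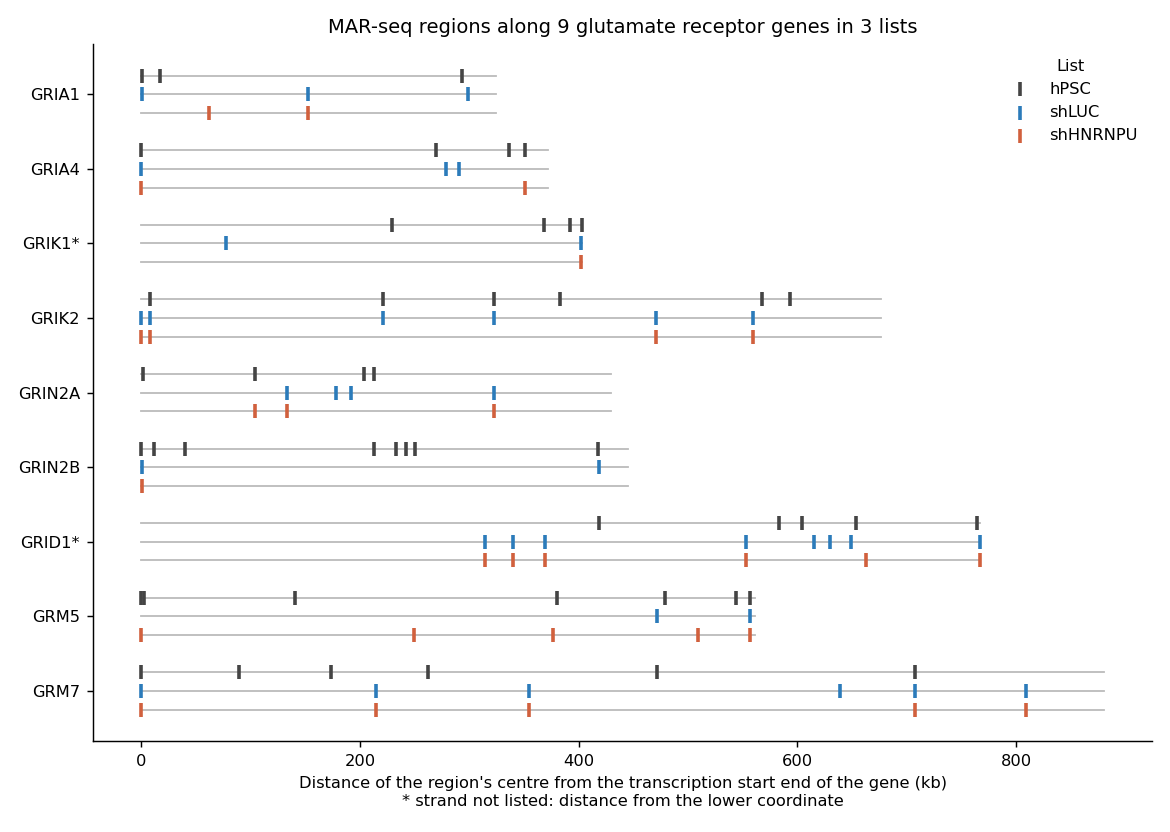
Position of each MAR-seq region along the 9 glutamate receptor genes. The x axis gives the distance of the centre of a region in kb from the transcription start end of the gene, or from the lower coordinate for GRIK1 and GRID1, whose strand was not listed. Each gene has 3 lines, hPSC above, shLUC in the middle and shHNRNPU below, and each tick is 1 region. Ticks of several lists meet at the start of GRIA4 and GRM7 and at the end of GRIK1 with the higher coordinate. GRIN2B has 8 ticks in hPSC against 2 and 1 in the hairpin lists.

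Together the 9 gene bodies spanned 4.86 Mb, with a median length of 445 kb. Every member had at least 1 region in each list. The pooled density was 9.67 regions per Mb in hPSC (interval 7.11 to 12.9), 7.41 in shLUC (5.19 to 10.3) and 5.97 in shHNRNPU (4.00 to 8.57). Region density was lower in long genes than over all genes, so the 773 protein-coding genes of at least 300 kb, with a median length of 450.2 kb, were used for comparison. Their pooled density was 11.7 per Mb in hPSC, 12.1 in shLUC and 11.2 in shHNRNPU, against 18.5, 18.3 and 17.1 over all protein-coding genes. The receptor genes therefore lay below other long genes, beyond counting error in both hairpin lists and within it in hPSC.

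Gene by gene, all 9 receptors were below the pooled density of long genes in shLUC, where the highest was GRID1 at 10.4 per Mb, and in shHNRNPU, where the highest was GRM5 at 8.91 per Mb. In hPSC 7 of 9 were below it, and GRIN2B at 18.0 and GRM5 at 12.5 per Mb were above. The median density over the members was 9.31 in hPSC, 8.06 in shLUC and 5.91 in shHNRNPU, and over the long genes it was 11.9, 12.01 and 11.2. Of the long genes, between 5.05% (for GRIN2B) and 35.8% (for GRM5) had a lower density than a given receptor in shHNRNPU. In shLUC the same share ran from 8.02% for GRM5 to 42.7% for GRID1, and in hPSC from 20.6% for GRID1 to 77.6% for GRIN2B.

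**Figure D2:**
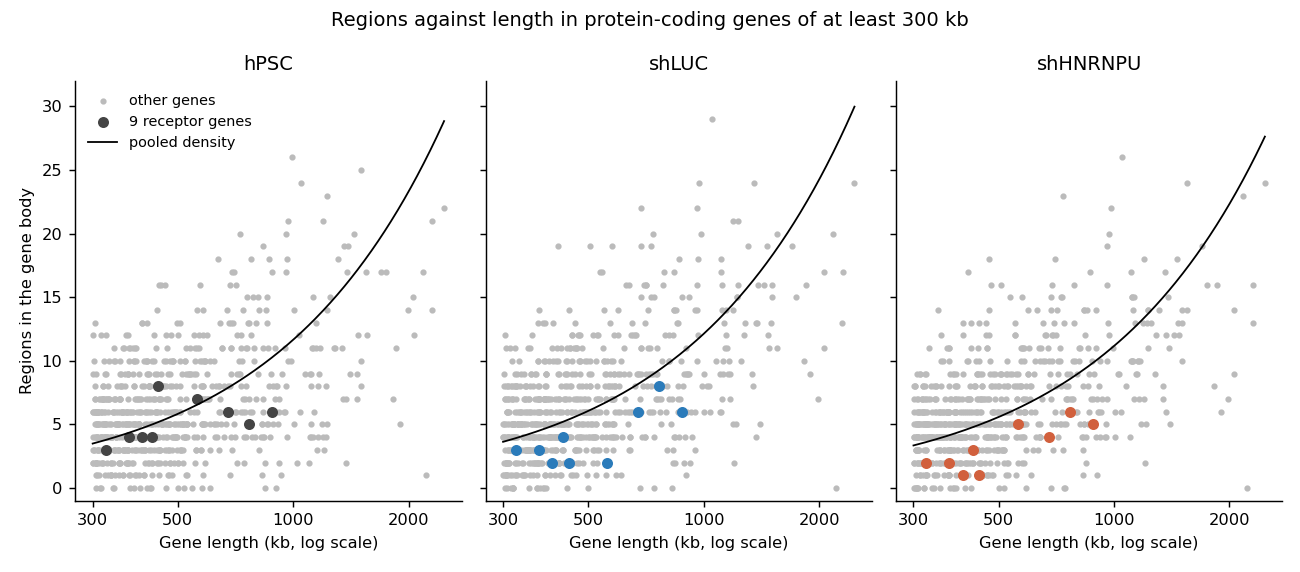
Number of regions in the gene body (y axis) against gene length in kb (x axis, log scale) for the 773 protein-coding genes of at least 300 kb, with 1 panel per list. Large points are the 9 receptor genes, small grey points the other genes, and the line is the pooled density of all 773 genes. All 9 large points lie under the line in shLUC and shHNRNPU, and 7 of 9 do in hPSC.

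The AMPA receptor genes had few regions in every list. GRIA1, which codes for the subunit GluA1, spans chr5:153489615-153813869 and had 3 regions in hPSC, 3 in shLUC and 2 in shHNRNPU. The region at chr5:153490307-153490706, 0.164 kb from a listed start, had identical coordinates in hPSC and shLUC and no counterpart in shHNRNPU, whose nearest region started 61264 bp away. A region 153.0 kb from the start end was shared by shLUC and shHNRNPU. GRIA4, which codes for GluA4, spans chr11:105609994-105982090 and had 4, 3 and 2 regions in the same order. Its start was held in all 3 lists by a joined site at chr11:105609676-105610250. The hPSC and hairpin regions of this site overlapped, with region starts 175 bp apart. The rest of the shHNRNPU regions in GRIA4 was 1 region 350.5 kb into the gene, with the coordinates of an hPSC region, and 94.2% of the gene lay without a region between them.

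Of the kainate receptor genes, GRIK1, which codes for GluK1, spans chr21:29536933-29939996 and had 4 regions in hPSC, 2 in shLUC and 1 in shHNRNPU. The 1 site that all lists had, chr21:29939120-29939780, lay at the upper end of the gene, and in shHNRNPU it left 402.4 kb, or 99.8% of the gene, without a region. The shLUC region at chr21:29614382-29614781 also overlapped the antisense RNA gene GRIK1-AS2. GRIK2, which codes for GluK2, spans chr6:101393708-102070083 and had 6 regions in hPSC, 6 in shLUC and 4 in shHNRNPU. The shHNRNPU regions of GRIK2 were all also in shLUC, with identical coordinates. The 2 shLUC regions that shHNRNPU lacked, 221.4 and 323.1 kb from the start, were the 2 that hPSC held with identical coordinates, and without them shHNRNPU had a stretch of 462.0 kb with no region. The start of GRIK2 was held in both hairpin lists and not in hPSC, while a site 8.38 kb into the gene, chr6:101401859-101402318, was in all 3 lists.

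The NMDA receptor genes differed from each other. GRIN2A, which codes for GluN2A, spans chr16:9753404-10182908 and had 4 regions in hPSC, 4 in shLUC and 3 in shHNRNPU. None of its regions was in all 3 lists, 2 were shared by the hairpin lists, 1 was shared by hPSC and shHNRNPU, and the hPSC region chr16:10181298-10181697 lay 0.57 kb from the listed start without meeting the promoter window. GRIN2B, which codes for GluN2B, spans chr12:13537337-13982134 and had 8 regions in hPSC, 2 in shLUC and 1 in shHNRNPU, the widest spread of the 9 genes. Of the 9 joined sites in GRIN2B, 7 were in hPSC alone, and the 1 shared by hPSC and shLUC had region starts 379 bp apart, and the regions overlapped only at their edges. At its start end hPSC had a region at chr12:13982045-13982444, while shLUC and shHNRNPU had one at chr12:13980718-13981117, which lay on another listed start. Past that region shHNRNPU had no other in GRIN2B, a stretch of 443.6 kb or 99.7% of the gene.

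GRID1, which codes for the delta receptor GluD1, spans chr10:85599552-86366795 and had 5 regions in hPSC, 8 in shLUC and 6 in shHNRNPU. It was the 1 receptor gene with more regions in shLUC than in hPSC, and none of its 14 joined sites was shared between hPSC and a hairpin list. The hairpin lists shared 5 sites, hPSC had 5 of its own, shLUC 3 and shHNRNPU 1. At the upper end of GRID1, the hairpin lists shared chr10:86366365-86366764, and the nearest hPSC region, chr10:86363064-86363463, started 3301 bp away. From the lower coordinate all 3 lists were empty for 314.3 kb, or 41.0% of the gene. Which end is the transcription start was not listed.

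Of the metabotropic receptor genes, GRM5, which codes for mGlu5, spans chr11:88504642-89065982 and had 7 regions in hPSC, 2 in shLUC and 5 in shHNRNPU. Its start was held in hPSC and shHNRNPU and not in shLUC, in which 471.8 kb, or 84.0% of the gene, lay without a region. The site in all 3 lists, chr11:88508817-88509338, lay near the far end of the gene and also overlapped the antisense RNA gene GRM5-AS1. GRM7, which codes for mGlu7, spans chr3:6861115-7741533 and had 6 regions in hPSC, 6 in shLUC and 5 in shHNRNPU. It was the 1 gene with 2 sites in all 3 lists, chr3:6860809-6861455 at its start and chr3:7568522-7568952, 707.6 kb further on. At the latter site the hPSC and hairpin regions overlapped, with region starts 31 bp apart. All 5 shHNRNPU regions of GRM7 were also in shLUC.

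**Figure D3:**
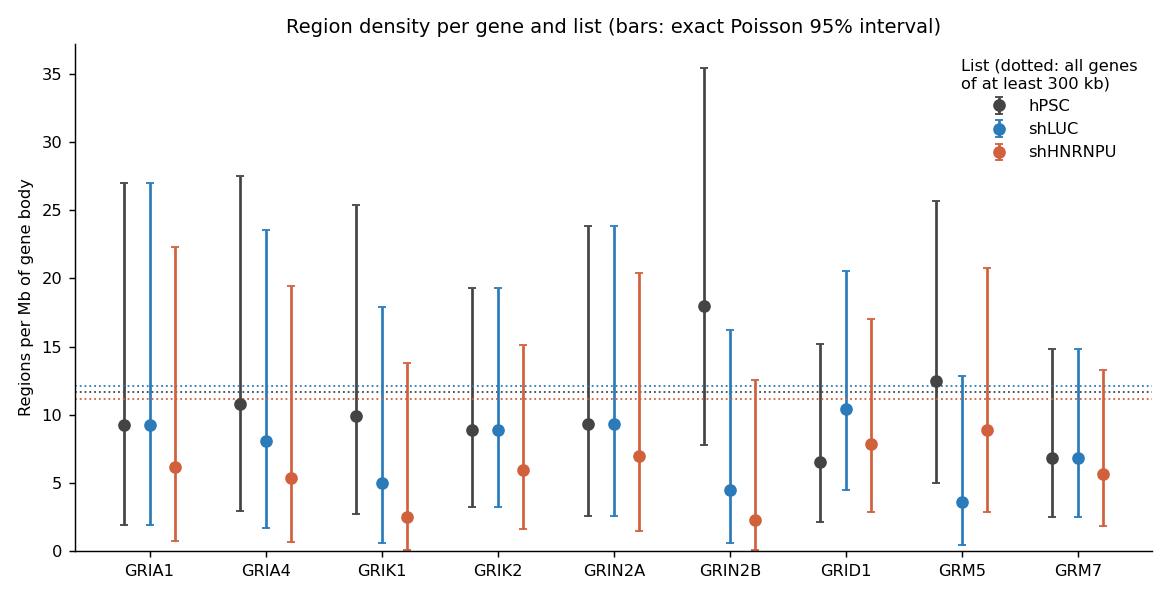
Regions per Mb of gene body for each of the 9 receptor genes in the 3 lists. Points are the density in 1 list, bars its exact Poisson 95% interval, and dotted lines the pooled density of the protein-coding genes of at least 300 kb in the list of the same colour. GRIN2B ranges from 2.25 per Mb in shHNRNPU to 18.0 in hPSC, and the intervals of the 3 lists overlap in every gene.

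The knockdown comparison asked whether these genes had fewer attached regions in shHNRNPU than in shLUC. The count was lower in 8 of 9 genes and higher in GRM5, and none had equal counts. Over all protein-coding genes 3556 had fewer, 2637 more and 13844 the same number, and over the long genes 373 had fewer, 214 more and 186 the same number. The sum over the 9 genes changed by -19.4%, a log2 ratio of -0.31 with an interval of -1.07 to 0.43, against -0.10 over all genes and -0.12 over the long genes. Both of these values lie within the interval, so by it the decrease in the receptor genes cannot be told from that of other genes. The interval treats the 2 counts as independent, although 21 of the 36 shLUC regions were also in shHNRNPU. It is therefore not the error of a region by region difference. In the 8 genes with fewer regions the count was lower by 1 or 2 per gene. This is a net difference. In GRID1, for example, 3 sites were in shLUC alone and 1 was in shHNRNPU alone.

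A gene was called when its counts in 2 lists differed by at least 1.5-fold and the larger count was at least 5, which is a rule of size and not a test. In shHNRNPU against shLUC 4 members could be called. GRIK2 was lower, at exactly the limit, with a ratio of 0.667 (interval 0.138 to 2.81), where 20.8% of 1214 genes were called lower. GRM5 was higher, with a ratio of 2.5 (0.409 to 26.3), where 6.92% were called higher. GRID1 and GRM7 were not called. Both intervals include 1, so neither difference exceeds counting error by this measure. It treats the 2 counts as independent, although shLUC and shHNRNPU shared regions in both genes.

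Against shLUC, hPSC had more regions in 4 genes (GRIA4, GRIK1, GRIN2B and GRM5), fewer in GRID1 and the same number in GRIA1, GRIK2, GRIN2A and GRM7. The sum was 30.6% higher, a log2 ratio of 0.38 with an interval of -0.27 to 1.05, against 0.01 over all genes and -0.06 over the long genes. Among 5 members that could be called, GRID1 was lower, with a ratio of 0.625 (0.161 to 2.17), where 34.7% of 1450 genes were called lower. GRIN2B and GRM5 were higher, with ratios of 4 (0.798 to 38.7) and 3.5 (0.666 to 34.5), where 27.9% were called higher. All 3 intervals include 1.

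Against shHNRNPU, hPSC had more regions in 8 genes and fewer in GRID1, and the log2 ratio of the sums was 0.70 with an interval of -0.0013 to 1.42, against 0.12 over all genes. None of 5 members was called lower, where 26.6% of 1349 genes were called lower. GRIK2 and GRIN2B were called higher, where 33.0% were called higher. The ratio of GRIN2B was 8 with an interval of 1.07 to 355, the only called ratio whose interval leaves out 1. The 3 comparisons use the same 3 lists in pairs and are not independent of each other. Labels of the hairpin samples give a hairpin where those of hPSC give no treatment, so the effect of a hairpin as such and any other difference between hPSC and the hairpin lists cannot be told apart.

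Positions were compared as well as counts. Of the 36 shLUC regions in these genes 21 met a shHNRNPU region, or 58.3% (interval 40.8 to 74.5), against 71.3% over all protein-coding genes and 71.7% over the long genes. All 21 had identical coordinates in both hairpin lists. Seen from shHNRNPU, 21 of 29 regions met a shLUC region, or 72.4% (52.8 to 87.3), against 76.6% over all genes. The shLUC list thus had 15 regions without a shHNRNPU counterpart, and shHNRNPU had 8 without a shLUC counterpart, 4 of them in GRM5. Fewer regions met between hPSC and the hairpin lists. Of the shLUC regions 10 of 36 met an hPSC region, or 27.8% (14.2 to 45.2), against 16.8% over all genes and 11.9% over the long genes, and for shHNRNPU it was 9 of 29, or 31.0% (15.3 to 50.8), against 19.9% and 14.7%. In both cases the share of the long genes lies just below the interval of the receptor genes.

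Joining regions that overlap gave 78 sites in the 9 genes. Of these 6 were in all 3 lists, 15 in both hairpin lists alone, 4 in hPSC and shLUC, 3 in hPSC and shHNRNPU, 34 in hPSC alone, 11 in shLUC alone and 5 in shHNRNPU alone. The share in both hairpin lists alone was 19.2% (interval 11.2 to 29.7), below the 30.1% of all 45042 sites in protein-coding genes. The other patterns lay within their intervals of the share over all genes. The 6 sites in all 3 lists fell in GRIA4, GRIK1, GRIK2, GRM5 and GRM7, and 3 of them were at a gene end, those of GRIA4, GRIK1 and GRM7.

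**Figure D4:**
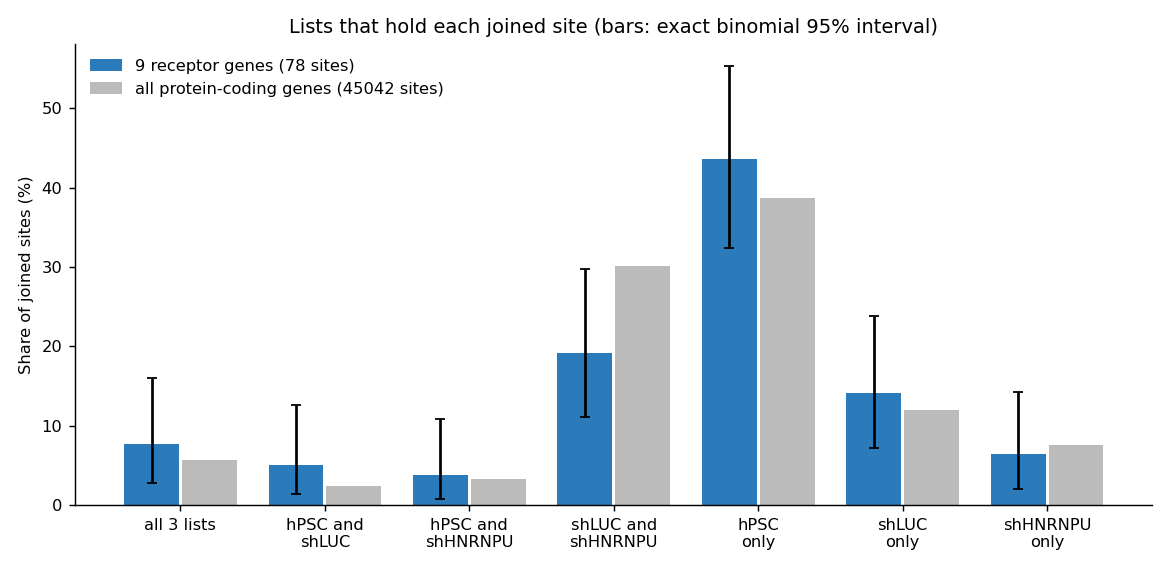
Share of joined sites (y axis, %) by the lists that hold them (x axis), for the 78 sites in the 9 receptor genes and the 45042 sites in all protein-coding genes. Bars on the receptor genes are exact binomial 95% intervals. Sites in both hairpin lists alone make up 19.2% in the receptor genes and 30.1% over all genes.

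Within 1 kb of a listed start, 3 of 5 shLUC regions of the 7 genes with a listed start met an hPSC region, and elsewhere in these genes 6 of 21 did. Over all protein-coding genes the shares were 50.1% near a start and 7.97% elsewhere. For shHNRNPU 3 of 5 met one near a start and 5 of 17 elsewhere, against 50.8% and 10.5% over all genes. Elsewhere the receptor genes gave 28.6% (11.3 to 52.2) for shLUC and 29.4% (10.3 to 56.0) for shHNRNPU. Of the shLUC regions 4 of 5 near a start and 11 of 21 elsewhere met a shHNRNPU region, against 78.8% and 69.4% over all genes.

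Neighbouring regions within a receptor gene were a median of 86.3 kb apart in the hPSC list, against 45.9 kb in the long genes. The medians of the receptor and long genes were 101.7 and 46.9 kb in shLUC, and 118.0 and 50.2 kb in shHNRNPU. Distances ran from 2.73 kb, at the start of GRM5 in hPSC, up to 276.3 kb for hPSC, 417.1 kb for shLUC and 462.0 kb for shHNRNPU. Only 4 distances of 38 in hPSC, 1 of 27 in shLUC and 1 of 20 in shHNRNPU were under 10 kb. In the 7 genes with a listed strand, the first 20% of the gene body held 13 of 38 hPSC regions (34.2%, interval 19.6 to 51.4), 6 of 26 shLUC regions (23.1%, 8.97 to 43.6) and 7 of 22 shHNRNPU regions (31.8%, 13.9 to 54.9). The long genes gave 25.2%, 24.3% and 25.2%, which lie within these intervals.

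The DNA beside the genes was compared over flanks of equal total length, with 1 flank on each side of a gene. The flanks held 55 regions in hPSC, 49 in shLUC and 51 in shHNRNPU, or 11.3, 10.1 and 10.5 per Mb. The bodies had the lower density in all 3 lists, by a log2 ratio of -0.23 in hPSC (interval -0.82 to 0.36), -0.44 in shLUC (-1.11 to 0.21) and -0.81 in shHNRNPU (-1.52 to -0.13). The interval leaves out 0 in shHNRNPU alone. Whether the 3 ratios differ from each other, or from those of the long genes given below, was not tested. In shHNRNPU the flanks were denser than the body in 6 genes, less dense in GRIK2 and GRM5, and equal in GRIN2A. The flanks of GRM7 held 7 regions in hPSC, 8 in shLUC and 13 in shHNRNPU, while its body held 6, 6 and 5. Long genes as a whole also had fewer regions in the body than in the flanks, with 11.7 against 14.5 per Mb in hPSC, 12.1 against 13.6 in shLUC and 11.2 against 12.6 in shHNRNPU.

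**Figure D5:**
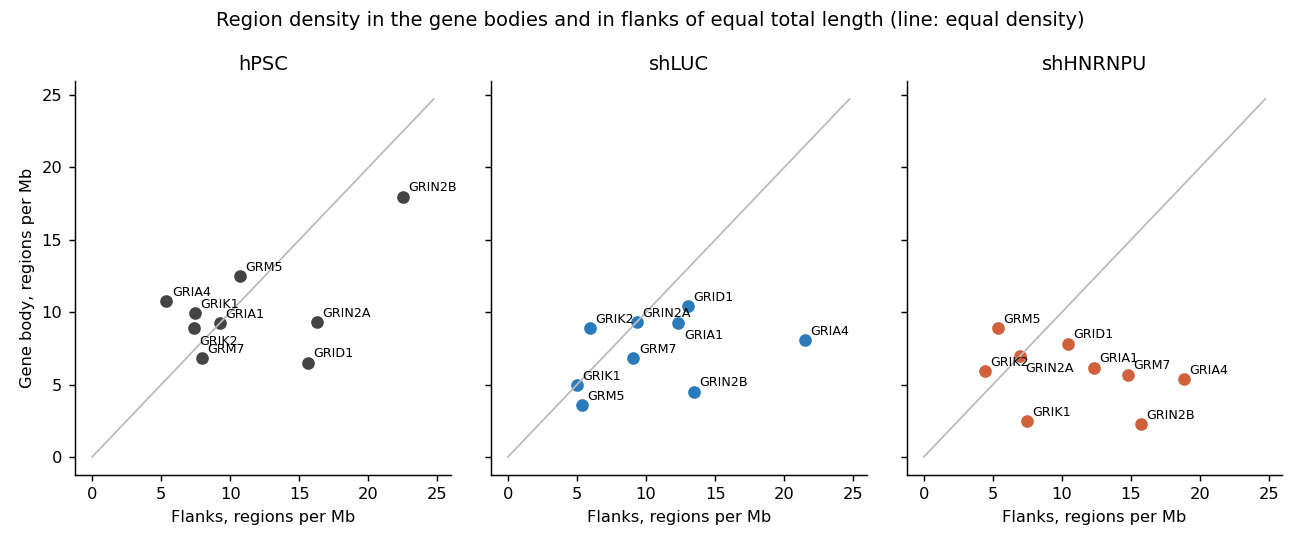
Density of regions in the gene body (y axis, per Mb) against that in flanks of equal total length (x axis, per Mb), with 1 panel per list and 1 point per receptor gene. The line marks equal density. In shHNRNPU 6 of 9 points lie below the line, those of GRIK2 and GRM5 above it.

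Other genes of the glutamate system were counted from lists of 17 further receptor genes, 16 auxiliary subunits, 8 glutamate transporters and 4 cerebellins. The further receptors held 66 regions in hPSC, 69 in shLUC and 67 in shHNRNPU, or 14.2, 14.9 and 14.4 per Mb, and their median length of 146.0 kb was below that of the 9 genes. Between shHNRNPU and shLUC none of the 5 that could be called was called in either direction. Over all genes 20.8% were called lower and 6.92% higher. For hPSC against shLUC 5 could be called, with GRIK3 and GRM8 the 2 called lower and GRM4 among 2 called higher. Over all genes the shares were 34.7% and 27.9%. For hPSC against shHNRNPU 6 could be called, with GRIK3, GRIK4 and GRM8 among 4 called lower and GRM4 among 2 called higher. Over all genes the shares were 26.6% and 33.0%. GRIK4, a kainate receptor gene, had 9 regions in hPSC, 12 in shLUC and 16 in shHNRNPU, and GRIK3, another, had 3, 6 and 6.

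GRM4 held 6, 4 and 2 regions in the order hPSC, shLUC and shHNRNPU, and GRM8 held 3, 7 and 5. GRIA3, an AMPA receptor gene of 306.6 kb on the X chromosome, had none in any list. The auxiliary subunits, which shape how receptor channels reach and work at the synapse, held 28, 39 and 33 regions, and 0 of the 2 that could be called changed between the hairpin lists. SHISA9 with 4, 8 and 10 regions was called lower in hPSC than in either hairpin list, as 1 of 2 that could be called. Over all genes 34.7% were called lower against shLUC and 26.6% against shHNRNPU. CNIH3 had 6, 8 and 6 regions. The transporters, which clear glutamate, held 14, 11 and 11 regions, and the cerebellins held 1, 3 and 2.

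Among 195 protein-coding genes with at least 10 regions in shLUC, the 3 whose densities in the 3 lists were closest to the pooled densities of the receptor genes were CNTNAP2, LINGO2 and CCSER1. Closeness was the Euclidean distance over the 3 densities in regions per Mb. It was 1.12 for CNTNAP2 (9.11, 7.38 and 6.94 per Mb in hPSC, shLUC and shHNRNPU), 2.50 for LINGO2 (8.62, 9.40 and 7.05) and 2.65 for CCSER1 (8.12, 7.44 and 8.12). CNTNAP2 alone of these had its densities in the same order as the receptor genes, with hPSC highest and shHNRNPU lowest. As the 3 genes were chosen by these densities, a like order is no separate result. No receptor gene had the 10 regions in shLUC asked of these genes, the highest being GRID1 with 8.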

How the data were processed

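MAR-seq was done on 6 samples of H1 cells, and 1 list of regions per group was deposited. Per the labels, submitters' processing notes name cutadapt, Bowtie2, SAMtools, MACS2, deepTools and hg38. The calling threshold, the use of input and the pooling of samples are not given in the sources used here. The deposited lists give a chromosome, start and end per region (other units were not used, since the score column held 0 throughout), and the hPSC region names carry an unexplained tag, rp1. No methods were taken from the paper, which covers other assays.

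Genes and promoter windows came from RefSeq (GRCh38.p14). The gene table has no exons, and positions relative to exons, introns and UTRs were not used here. Regions were counted per gene body by overlap of at least 1 bp. Densities have exact Poisson intervals, shares exact Clopper-Pearson intervals and count ratios conditional exact binomial intervals, all at 95%. Depth per sample is unknown, and its part in the region counts was not tested. No test between groups was possible with 1 list per group.

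The members and gene lists were chosen with earlier results of these data known. All 9 members are named, as are genes of the other lists with at least 5 regions in any list, called ones, and the 3 genes most alike in density. Some genes that this rule names are not reported here. GRIA3 and the promoter windows were chosen after their values were seen. Alternatives were region centres, extended gene bodies, merged regions, list length, stricter overlap, and other folds, minimums and flanks. The counting code was tested on simulated lists. Counting used Python 3.11.15 with pandas 2.3.3 and numpy 2.4.6, intervals used scipy 1.17.1, and plots matplotlib 3.10.9.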

Additional observations from a re-analysis of the deposited data

How the results depend on the processing

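With 1 list per group and 4 or fewer regions in many genes, counting error limits every gene-level difference. Of 99 recomputed values, 91 stayed within the interval of the value reported, or within 1.5 times of a count of calls or its background, and none reversed. The 8 that moved were these. With counts divided by the number of regions of the list, members called lower in shHNRNPU than in shLUC fell from 1 to 0, and members called higher in hPSC than in shHNRNPU from 2 to 1, as GRIK2 dropped out of both. At 2-fold the same numbers were 0 and 1, and members called lower in hPSC than in shLUC fell from 1 (GRID1) to 0. With region centres in the gene body, GRM5 fell from 5 to 4 regions in shHNRNPU, with 2 in shLUC, and could no longer be called, so members called higher in shHNRNPU than in shLUC fell to 0. Regions in the first 20% of the gene were 1.71 times those of even placement in hPSC and 1.15 times in shLUC, and in the first 10% they were 2.89 and 2.31 times. With at least 10 regions required, no member could be called.

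Leaving out each gene in turn (leave-one-out) gave log2 ratios of -0.50 to -0.26 for shHNRNPU against shLUC, the lowest without GRM5. They were 0.20 to 0.58 for hPSC against shLUC, from 0.20 without GRIN2B to 0.58 without GRID1. The share of shLUC regions met in shHNRNPU ran from 53.3% to 60.6%, and that met in hPSC from 23.3% to 35.7%. Regions within 1 kb of a start, an alternative chosen after seeing the data, gave 6 genes in hPSC and 5 in each hairpin list. No paired analysis was possible because the lists are not split by replicate, and no replicate could be left out for the same reason.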
